A study of Homo sapiens with 15 samples.

Results

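The lowest of the martinostat doses, 0.15 µM for 24 h, was compared with no treatment in K-562 cells (also written K562), an established human line of chronic myeloid leukaemia (CML) that carries the BCR-ABL fusion kinase and has an erythroid character. Martinostat inhibits histone deacetylases (HDACs). The members were the 3 samples labelled 0.15 µM and the 3 labelled as the untreated control, 6 of the 15 samples of the study, chosen by their labels. The other 9 samples, 3 each at 0.25, 0.5 and 1 µM, entered the fit and are quoted only where a dose is set beside 0.15 µM. All groups are the same line, and the labels name no engineered allele. The dose is the only difference that the labels state, but they give the time of 24 h for treated samples only. The labels number biological replicates and do not say whether the untreated cells received the solvent or when they were taken. A single line stands here for the disease, and p-values measure the spread between these cultures. The poly(A) RNA of whole cultures was sequenced, so less RNA per cell and fewer cells with that RNA cannot be told apart.

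Histone deacetylases remove acetyl groups from lysines of histones and of other proteins such as tubulin. They work mostly inside corepressor complexes (SIN3, NuRD, CoREST and NCoR/SMRT) that are brought to genes by transcription factors, and their removal of histone acetyl groups is associated with silent chromatin. Inhibitors of these enzymes are known for raising the cyclin-dependent kinase inhibitor p21 (CDKN1A) and for slowing the cell cycle of leukaemia cells. The comparison asks which genes already answer at the weakest exposure of the series.

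The 6 samples held between 27012416 and 32805574 counts. Within a group, Pearson's r of log2 CPM across genes was between 0.989 and 0.996, and every pair of replicates differed by more than counting noise (chi-square per degree of freedom at least 9.32). Replicate 3 at 0.15 µM stood apart, with values of 35.01 and 40.03 against replicates 1 and 2, which gave 11.36 between them. Levels are given as CPM, counts per 1000000 of the library size after TMM scaling (trimmed mean of M values), as mean ± SD of 3 samples. A K562 marker list of 8 genes had no member at 0 counts in any of the 6 samples, and its summed level was 3153 to 3545 CPM untreated and 1546 to 1649 CPM at 0.15 µM. GATA1, the erythroid master regulator, was at 328 ± 5.92 and 313 ± 29.3 CPM and was not called. More genes were detected at 0.15 µM (30830 to 32820 with at least 1 count) than untreated (25887 to 26257), without overlap.

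Of 23711 genes tested, 12148 (51.2%) passed a false discovery rate of 0.05 (Benjamini-Hochberg) in the quasi-likelihood test of edgeR and are referred to as called. A higher level at 0.15 µM was called for 7557 genes (31.9%) and a lower level for 4591 (19.4%). Changes over 2-fold were mostly upward, with 6391 genes called and over 2-fold higher (27.0%) against 1323 over 2-fold lower (5.58%). Over 4-fold the numbers were 4484 and 36. In 7211 of the genes called higher, all 3 samples at 0.15 µM lay above all untreated samples, and in 4566 of those called lower all 3 lay below. The split depended on the scale. With library totals in place of TMM 9582 genes were higher and 2118 lower. When the TMM factors were taken only from genes at 10 CPM or above, 9074 were higher and 2891 lower. Over all tested genes the median of the log2 fold changes was 0.28 with TMM, 0.64 with library totals and 0.54 with the latter factors. Each change below is to be read relative to 0.28 or, for genes averaging 10 CPM or more, relative to their median of -0.33.

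The direction followed the level of the gene. When the tested genes were split by their mean CPM over the 6 samples into 5 classes of about 4742 genes, 1809 genes of the lowest class (0 to 0.360 CPM) were called higher and 13 lower, with a median log2 fold change of 1.84. In the highest class (55.1 CPM and more) 462 were higher and 2443 lower, and the median was -0.47. The preponderance of lower calls in the highest class held with library totals (990 higher, 1365 lower, median -0.11), whereas in the class below it, 11.8 to 55.1 CPM, the order turned from 1126 higher and 1662 lower with TMM to 1675 higher and 629 lower with library totals. Restricted to the 9843 genes averaging 10 CPM or more, 1738 (17.7%) were higher and 4169 (42.4%) lower, with a median of -0.33 (0.03 with library totals). These shares are the background for the gene groups below, since low genes could enter the test through the treated samples alone and groups of such genes had to rise.

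**Figure D1:**
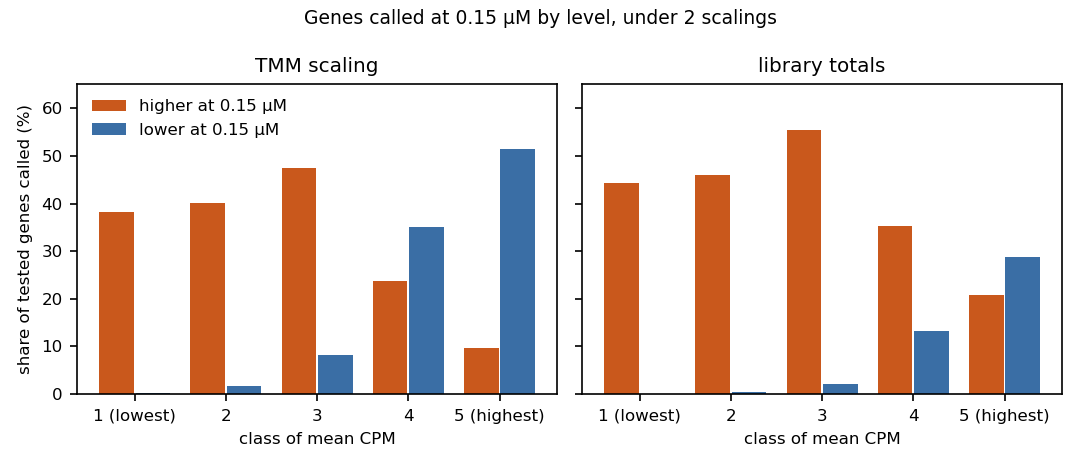
Share of tested genes called higher (orange) or lower (blue) at 0.15 µM, in percent, by class of mean CPM from the lowest (1) to the highest (5), with TMM scaling on the left and library totals on the right. Higher calls fill the 3 lower classes under both scalings, and in class 5 lower calls outnumber higher ones under both (2443 against 462 and 1365 against 990).

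Long non-coding genes and genes without any untreated count showed the same tilt. Of 5055 lncRNA genes tested 1696 were higher and 135 lower (median 0.82), against 5341 and 4217 of 15640 protein-coding genes (median 0.1). No count at all was found in the 3 untreated samples for 29282 genes of the table. Of these, 1917 had counts in all 3 samples at 0.15 µM, 192 reached a mean of 1 CPM there and 171 of the 192 were protein-coding. In the other direction, 22796 genes had 0 counts at 0.15 µM, 56 of which had counts in all 3 untreated samples and 0 reached 1 CPM. A total of 3 counts over the untreated samples would have been 0.0395 CPM, and folds against silent genes are given as at least the ratio to that level.

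Among genes averaging 10 CPM or more, the 12 largest rises included several genes best known from neurons. SNCB (beta-synuclein, ENSG00000074317.11, chromosome 5, 176620082 to 176630556 on hg38) had 0 counts in all untreated samples, and its treated levels of 42.2, 36.4 and 50.5 CPM were at least 1091-fold higher. NOVA2, a neuronal splicing regulator, also went from 0 counts in each untreated sample to 24.5, 22.4 and 28.7 CPM, at least 638-fold higher. L1CAM, a neural cell adhesion molecule (ENSG00000198910.14, chromosome X, 153861514 to 153886173), was at 0.164, 0.0772 and 0.0783 CPM untreated and at 129, 131 and 117 CPM at 0.15 µM (log2 fold change 10.16, SE 0.28, edgeR adjusted p 1.93e-14). TMEM59L moved from 0, 0.0772 and 0.0783 to 75.6, 60.1 and 69.9 CPM (log2 fold change 10.23, SE 0.29, edgeR adjusted p 1.93e-14). In these 4 genes every treated sample stood more than 100 times above every untreated sample and above the level of 3 counts. COL6A2, a collagen VI chain, rose from 0.0534 ± 0.0462 to 44.5 ± 8.6 CPM with a log2 fold change of 9.6 (SE 0.35, edgeR adjusted p 3.61e-13). ADGRG1, an adhesion G protein-coupled receptor, went from 3 counts in the untreated samples together to 26.1 ± 5.32 CPM, a ratio of 661 (95% counting interval 226 to 3209.7). The lncRNA ENSG00000264451, ANKRD24, ZCCHC12, the G protein subunit GNAZ, the T-type calcium channel CACNA1H and the ephrin receptor EPHB2 completed the 12, with treated means of 40.8 ± 5.88, 22.7 ± 7.04, 36 ± 1.67, 29.5 ± 1.98, 25.3 ± 4.66 and 34 ± 3.6 CPM in that order and untreated means from 0.0518 (ANKRD24) to 0.154 CPM (EPHB2). The fitted folds of ADGRG1, ENSG00000264451, EPHB2, GNAZ and ZCCHC12 rest on few untreated counts and, unlogged, grew by over 1.5 times without 1 of the untreated samples, most in EPHB2 (log2 fold change from 7.71 to 12.94 without untreated replicate 2).

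Of the 6 silent genes with the highest treated level, SNCB and NOVA2 were followed by CYP4F22, a fatty acid hydroxylase of the epidermis (15, 12.4 and 17.3 CPM), SLC32A1, the vesicular transporter of GABA and glycine (13.5, 10.1 and 14.6 CPM), the neuronal septin SEPTIN3 (12.1, 13.3 and 12 CPM) and PPP2R2C, a brain regulatory subunit of phosphatase 2A (8.96, 8.26 and 10.6 CPM). Each had 0 counts in all 3 untreated samples. Their means at 1 µM were 22.3 ± 0.968 CPM for CYP4F22, 8.06 ± 2.22 for SLC32A1, 15.7 ± 1.49 for SEPTIN3 and 12.4 ± 2.05 for PPP2R2C.

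Falls were shallower than rises, and the 12 largest ranged from 3.85-fold (UTP20) to 27.8-fold for the lncRNA ENSG00000288046, which fell from 30 ± 3.88 to 1.08 ± 0.148 CPM (log2 fold change -4.79, SE 0.33, edgeR adjusted p 1.06e-09). PKLR, the pyruvate kinase of red cells and liver (ENSG00000143627.19, chromosome 1, 155289293 to 155301438), was at 193, 190.4 and 188 CPM in the untreated samples and 21.2, 20.8 and 24.2 CPM at 0.15 µM (log2 fold change -3.11, SE 0.42, edgeR adjusted p 3.5e-05). SLC38A5, a glutamine transporter of the cell membrane, was at 337, 325 and 349 CPM in the untreated samples and 45.1, 47.2 and 67.7 CPM at 0.15 µM (log2 fold change -2.66, SE 0.27, edgeR adjusted p 3.68e-07). The stress-responsive transcription factor ATF5 was at 55.2, 51.9 and 55.9 CPM in the untreated samples and 8.68, 8.33 and 10.9 CPM at 0.15 µM (log2 fold change -2.55, SE 0.24, edgeR adjusted p 7.21e-08). For ODC1, the rate-limiting enzyme of polyamine synthesis, the values were 1221, 1255 and 1250.3 CPM in the untreated samples and 244, 259.6 and 275 CPM at 0.15 µM (log2 fold change -2.26, SE 0.18, edgeR adjusted p 8.62e-09). The 12 were chosen among called genes whose groups do not overlap, so their separation follows from the choice. The rest of the 12 were FAM136A, the pseudouridine synthase PUS7, the mitochondrial carrier SLC25A21, the RNA polymerase III factor GTF3C6, the checkpoint and meiosis ATPase TRIP13, the RNA polymerase I subunit POLR1G and the ribosome biogenesis factor UTP20, all between 3.85-fold (UTP20) and 4.49-fold (FAM136A) lower. Of the exonic sequence of PKLR 17.6%, of ATF5 19.5%, of SLC25A21 37.2% and of POLR1G 49.8% are covered by exons of an opposite-strand gene, where fragments may have gone uncounted, and these values may rest on the remaining bases.

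**Figure D2:**
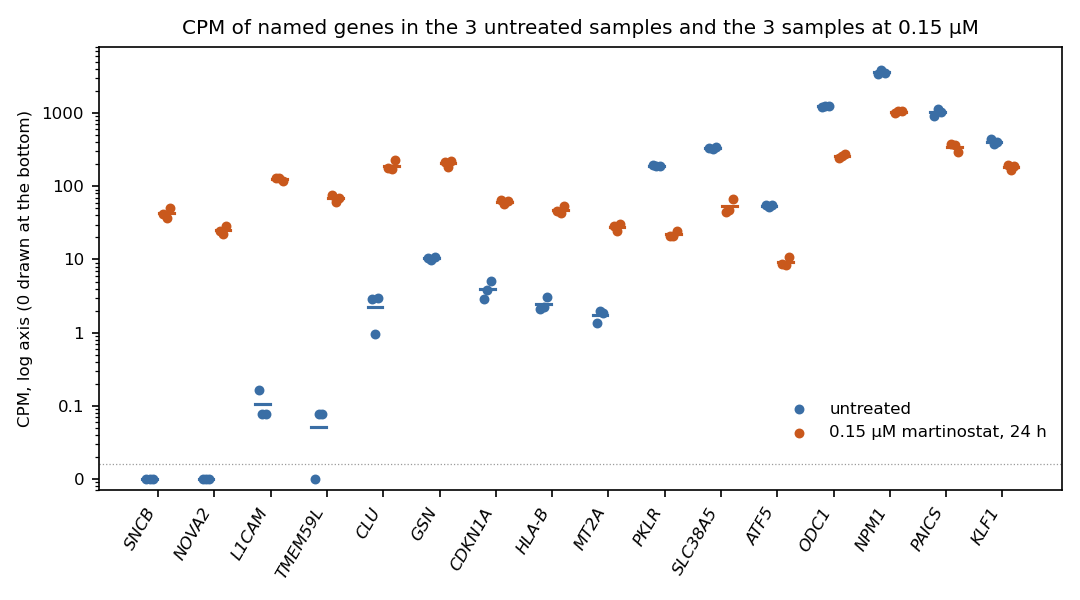
CPM of 16 named genes (log axis, values of 0 at the bottom) in each of the 3 untreated samples (blue) and the 3 samples at 0.15 µM (orange), with horizontal bars at the group means. The groups do not overlap in any of the 16 genes. For SNCB, NOVA2, L1CAM, TMEM59L, PKLR, SLC38A5, ATF5 and ODC1 this was a condition of their choice. SNCB and NOVA2 lie at 0 in all untreated samples.

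The promoters of the leading genes are shown so that the base composition of genes that rose can be read beside that of genes that fell. The 150 bases before the most upstream RefSeq start listed for each gene are given 5′ to 3′ on the strand of the gene, with build GRCh38.p14 coordinates. For L1CAM the listed start lies well inside the gene span given above, so its stretch may not be the outermost promoter of the gene. Capitals mark matches on either strand to any of 3 words. The GC box of Sp1-type factors was searched as GGGCGG. The box of NF-Y was searched as CCAAT. The word of GATA factors was searched as AGATAA.
SNCB (chr5:176630535-176630684, minus strand): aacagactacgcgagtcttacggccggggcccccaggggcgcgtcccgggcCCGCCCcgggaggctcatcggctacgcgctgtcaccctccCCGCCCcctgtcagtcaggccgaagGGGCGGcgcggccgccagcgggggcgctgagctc
NOVA2 (chr19:45973866-45974015, minus strand): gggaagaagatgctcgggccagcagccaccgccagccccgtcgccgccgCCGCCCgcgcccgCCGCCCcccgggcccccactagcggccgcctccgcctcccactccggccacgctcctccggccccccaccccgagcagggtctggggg
L1CAM (chrX:153876015-153876164, minus strand): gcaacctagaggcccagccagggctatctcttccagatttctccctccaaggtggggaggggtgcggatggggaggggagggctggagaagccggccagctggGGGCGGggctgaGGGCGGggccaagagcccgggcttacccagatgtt
TMEM59L (chr19:18612720-18612869, plus strand): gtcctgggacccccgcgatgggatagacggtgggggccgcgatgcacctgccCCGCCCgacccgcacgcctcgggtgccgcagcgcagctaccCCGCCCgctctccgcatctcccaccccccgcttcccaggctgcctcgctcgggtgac
CDKN1A (chr6:36678564-36678713, plus strand): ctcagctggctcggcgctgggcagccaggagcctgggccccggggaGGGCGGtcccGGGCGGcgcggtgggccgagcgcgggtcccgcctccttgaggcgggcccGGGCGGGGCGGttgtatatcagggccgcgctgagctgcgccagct
PKLR (chr1:155301439-155301588, minus strand): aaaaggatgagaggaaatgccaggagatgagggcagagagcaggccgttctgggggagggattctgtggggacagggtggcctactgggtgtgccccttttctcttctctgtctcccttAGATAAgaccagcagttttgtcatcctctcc
SLC38A5 (chrX:48470261-48470410, minus strand): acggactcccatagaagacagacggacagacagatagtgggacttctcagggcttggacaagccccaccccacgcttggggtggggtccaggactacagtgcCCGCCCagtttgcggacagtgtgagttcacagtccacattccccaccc
ATF5 (chr19:49928756-49928905, plus strand): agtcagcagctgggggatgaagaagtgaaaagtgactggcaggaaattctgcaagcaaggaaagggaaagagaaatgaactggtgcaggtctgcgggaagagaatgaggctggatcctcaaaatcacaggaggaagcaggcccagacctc
ODC1 (chr2:10448328-10448477, minus strand): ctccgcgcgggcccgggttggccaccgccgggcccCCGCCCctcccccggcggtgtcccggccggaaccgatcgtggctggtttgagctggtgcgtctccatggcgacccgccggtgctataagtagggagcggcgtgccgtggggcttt
KLF1 (chr19:12887202-12887351, minus strand): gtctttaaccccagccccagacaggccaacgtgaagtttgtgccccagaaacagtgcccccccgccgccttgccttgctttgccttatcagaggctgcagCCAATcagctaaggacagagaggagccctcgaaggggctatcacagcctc
GC content was 77.3% for SNCB, 82.0% for NOVA2, 68.0% for L1CAM, 76.0% for TMEM59L and 79.3% for CDKN1A, and each of the 5 stretches held at least 2 matches to GGGCGG. Among the genes that fell, PKLR had 54.7%, SLC38A5 60%, ATF5 51.3% and KLF1 59.3%, and ODC1, at 74.7%, was the exception. PKLR carried an AGATAA and KLF1 a CCAAT.

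Over all genes with a promoter this contrast was not seen. A promoter was found for 14019 of the 23711 tested genes, and the words were searched on both strands in the 250 bases before the start. GGGCGG was present in 60.4% of the 4665 promoters of genes called higher, 66.9% of the 3602 of genes called lower and 60.2% of the 5752 of genes not called, against 42.2% of all 27305 promoters of the table. Among genes of at least 10 CPM the order was the other way round, 73.4% for higher and 67.4% for lower genes, beside 69.9% for all of them. The median GC content of the 250 bases was 64.4% for genes called higher and 64.0% for genes called lower. Among genes of at least 10 CPM it was 68.0% and 64.0%. CCAAT was in 31.4% of higher and 37.0% of lower genes (33% of all promoters), AGATAA in 6.5% and 4.11% (9.4%), and CCNCNCCC, the word of KLF-type factors, in 71.9% and 67.3% (52.3%). The reverse strand of GGGCGG can share bases with CCNCNCCC. In 6058 of the 8691 tested promoters with GGGCGG a match of it overlapped a match of CCNCNCCC or lay before it with at most 1 base between. The ratio of observed to expected CpG was lower in genes called higher (median 0.702) than in those called lower (0.861), and it was 0.655 in the 120 genes with a promoter that had 0 untreated counts and at least 1 CPM at 0.15 µM. These shares are descriptions, since no test was run on them and a match is not a binding site.

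Genes widely known to answer HDAC inhibitors moved at this dose. CDKN1A, which encodes p21, a brake on cyclin-dependent kinases, was at 2.86, 3.82 and 5.01 CPM in the untreated samples and 64.7, 57.2 and 63 CPM at 0.15 µM (log2 fold change 3.98, SE 0.23, edgeR adjusted p 8.35e-11). CLU, a secreted chaperone, was at 2.86, 0.966 and 2.97 CPM in the untreated samples and 177, 172 and 226 CPM at 0.15 µM (log2 fold change 6.4, SE 0.31, edgeR adjusted p 1.02e-11), and GSN, the actin-severing protein gelsolin, at 10.4, 9.89 and 10.9 CPM in the untreated samples and 212, 181 and 223 CPM at 0.15 µM (log2 fold change 4.3, SE 0.17, edgeR adjusted p 7.61e-13). In each, the lowest treated sample was at least 10 times the highest untreated sample. Of 7 tested genes on this list 4 were higher and 2 lower, the latter being the DNA synthesis enzymes CTPS1 (-1.19) and TYMS (-1.65, 47.9% of its exonic bases covered from the opposite strand). The remaining higher call, TXNIP, an inhibitor of thioredoxin, was small (246 ± 23.7 to 336 ± 7.79 CPM, 0.45) and was lost with RLE size factors (0.4), without untreated replicate 1 (0.46), without untreated replicate 3 (0.38), without 0.15 µM replicate 1 (0.43), without 0.15 µM replicate 2 (0.45) and without 0.15 µM replicate 3 (0.46). H2BC21 was at 43 ± 4.83 and 43.4 ± 3.87 CPM (0.01, edgeR adjusted p 0.974).

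The targets of the drug moved little. Of the 11 HDAC genes 2 were called higher and 3 lower (3 and 0 with library totals), with a median of -0.15 (0.21 with library totals, beside medians of all genes of 0.28 and 0.64). HDAC6, the tubulin deacetylase, went from 55.3 ± 1.95 to 99.7 ± 12.2 CPM (0.85) and HDAC11 from 6.39 ± 0.534 to 13.1 ± 1.87 CPM (1.04). The lower calls were HDAC2 (-0.5), HDAC3 (-0.47) and HDAC7 (-0.47), and the first 2 were lost with library totals (-0.13 and -0.11), with TMM from genes at 10 CPM or above (-0.23 and -0.21) and with limma (-0.1 and -0.09). The HDAC7 call was lost with library totals (-0.11), with TMM from genes at 10 CPM or above (-0.21), with at least 10 counts required in every sample (-0.29), without untreated replicate 3 (-0.43), without 0.15 µM replicate 1 (-0.43), without 0.15 µM replicate 2 (-0.43) and with limma on log2(FPKM + 1) (-0.08). Among 25 corepressor subunits 12 were lower and 1 higher (median -0.44, -0.08 and 3 lower calls with library totals). The strongest falls were in NuRD, the nucleosome remodelling complex that carries HDAC1 and HDAC2, where CHD3 went from 194 ± 12.9 to 81.7 ± 15.5 CPM (log2 fold change -1.24, SE 0.17, edgeR adjusted p 6.17e-06) and MTA2 from 425 ± 19.5 to 199.6 ± 16.5 CPM (log2 fold change -1.09, SE 0.14, edgeR adjusted p 2.14e-06). RCOR2, a CoREST subunit, was the higher member, at 7.76 ± 1.6 to 18.6 ± 1.77 CPM (1.26). Of 18 genes that write or read acetyl marks 10 were lower and 2 higher (median -0.45), whereas 3 were higher and 3 lower with library totals.

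Cell cycle genes fell together, with p21 rising. Of 12 cyclins and cyclin-dependent kinases 9 were lower and 2 higher, a median of -1.03 (-0.66 with library totals). CCNA2 (cyclin A2) was at 405, 447 and 433 CPM in the untreated samples and 156, 149 and 110.1 CPM at 0.15 µM (log2 fold change -1.63, SE 0.3, edgeR adjusted p 0.000257). CCNB1 (cyclin B1) fell from 357 ± 26.6 to 137 ± 2.36 CPM (-1.38) and CDK2 from 82.3 ± 7.13 to 34.6 ± 3.02 CPM (-1.25). The higher members were the D-type cyclins CCND1, 13 ± 1.33 to 24.2 ± 3.12 CPM (0.9 (SE 0.21, edgeR adjusted p 0.00137)), and CCND2, 56.9 ± 16.9 to 99.7 ± 11.2 CPM (0.81 (SE 0.25, edgeR adjusted p 0.0108)). The CCND2 call was lost without untreated replicate 3 (0.65). Among the CDK inhibitors CDKN1C (p57) rose from 18 ± 2.74 to 52 ± 12.6 CPM (1.53) and CDKN2D (p19) from 1.71 ± 0.289 to 4.13 ± 0.724 CPM (1.27) beside CDKN1A, whereas CDKN2C was not called (-0.16, edgeR adjusted p 0.529). CDKN1B (p27) was called lower (-0.31), a call lost with library totals (0.06), with TMM from genes at 10 CPM or above (-0.04), without the low-count filter (-0.3), with at least 10 counts required in every sample (-0.13), with the replicate block (-0.3), without untreated replicate 2 (-0.27), without untreated replicate 3 (-0.29), without 0.15 µM replicate 1 (-0.34), without 0.15 µM replicate 2 (-0.31), without 0.15 µM replicate 3 (-0.27) and with limma on log2(FPKM + 1) (0.03).

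DNA replication genes fell almost throughout. Of 35 tested genes 29 were lower and 0 higher. The median was -1.03, and -0.67 with library totals, under which 27 were lower. RRM2, the ribonucleotide reductase subunit, was at 314, 361 and 346 CPM in the untreated samples and 112, 123 and 92.5 CPM at 0.15 µM (log2 fold change -1.64, SE 0.26, edgeR adjusted p 4.52e-05). MCM4 of the replicative helicase was at 576, 683 and 658 CPM in the untreated samples and 219, 258 and 210.1 CPM at 0.15 µM (log2 fold change -1.48, SE 0.21, edgeR adjusted p 7.96e-06). The thymidylate synthase TYMS was at 74.9, 86.1 and 84.5 CPM in the untreated samples and 27.3, 26.7 and 24 CPM at 0.15 µM (log2 fold change -1.65, SE 0.17, edgeR adjusted p 2.16e-07). Mitosis genes behaved alike, with 19 of 25 lower and 0 higher (median -0.95, -0.59 and 15 lower with library totals), among them the kinesins KIF20A (-1.64) and KIF23 (-1.41) and the kinase AURKA (-1.59). DNA repair genes had 27 of 35 lower and 0 higher (median -0.81, -0.44 with library totals, under which 19 were lower and 2 higher). BRCA2 fell from 49.2 ± 3.26 to 17.6 ± 7.75 CPM (-1.49), BRCA1 from 122 ± 10.1 to 46.3 ± 3.31 CPM (-1.4) and the checkpoint kinase CHEK1 from 146 ± 11.1 to 56.3 ± 1.92 CPM (-1.38). For comparison, 42.4% of all genes averaging 10 CPM or more were lower.

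Most genes of nucleotide synthesis fell. In the synthesis of purines and pyrimidines 17 of 18 genes were lower and 1 was higher (median -0.92, -0.56 and 13 lower with library totals). PAICS, a purine enzyme, was at 912, 1129.8 and 1039 CPM in the untreated samples and 384, 368 and 295 CPM at 0.15 µM (log2 fold change -1.56, SE 0.18, edgeR adjusted p 7.17e-07). PRPS2, which makes phosphoribosyl pyrophosphate, went from 50.4 ± 2.36 to 20.7 ± 3.6 CPM (-1.28) and GART, another purine enzyme, from 472 ± 22.1 to 203 ± 14.1 CPM (-1.21). The exception was ADSS1, the muscle form of adenylosuccinate synthase, which rose from 3.4 ± 0.679 to 8.94 ± 0.863 CPM (1.39) while ADSS2 fell from 144 ± 6.67 to 64 ± 2.89 CPM (-1.17). Of 13 genes of serine and one-carbon metabolism 7 were lower and 2 higher (median -0.58). MTHFD1L and MTHFD1, which carry folate-bound carbon, fell (-1.4 and -1.38), and PSAT1 of serine synthesis fell from 70.7 ± 5.61 to 29.4 ± 1.81 CPM, whereas PHGDH, the first enzyme of the same route, rose from 69.6 ± 3.23 to 158 ± 27.8 CPM (log2 fold change 1.19, SE 0.24, edgeR adjusted p 0.000585).

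The polyamine pathway divided between the enzymes of synthesis and those of breakdown, with exceptions among their regulators and suppliers. ODC1, given above, SRM (spermidine synthase), SMS (spermine synthase), AMD1 (S-adenosylmethionine decarboxylase) and AZIN1 (antizyme inhibitor 1) were lower. SRM was at 702, 669.8 and 829 CPM in the untreated samples and 264, 224 and 239 CPM at 0.15 µM (log2 fold change -1.6, SE 0.25, edgeR adjusted p 4.93e-05), SMS fell from 334 ± 28.2 to 134 ± 10.3 CPM (-1.32) and AMD1 from 335 ± 27.5 to 151 ± 13.6 CPM (-1.15). Higher were SMOX, which oxidises spermine, from 5.09 ± 0.234 to 22.2 ± 4.78 CPM (log2 fold change 2.12, SE 0.19, edgeR adjusted p 3.42e-08), SAT1, which acetylates polyamines for export and breakdown, from 16 ± 3.3 to 31.9 ± 3.03 CPM (1.0), and AZIN2, an antizyme inhibitor like AZIN1, from 0.558 ± 0.229 to 4.16 ± 0.596 CPM (2.9), with OAZ2, PAOX and ARG2, which supplies ornithine. Of the 12 genes 6 were higher, 5 lower and OAZ1 was not called (-0.12, edgeR adjusted p 0.762), so the median of 0.26 hides the split.

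Ribosome biogenesis was the group with the lowest median, -1.08 (-0.72 with library totals). Of 25 genes 23 were lower and 0 higher, beside 42.4% lower among all genes averaging 10 CPM or more. NPM1 (nucleophosmin), an abundant nucleolar chaperone, was at 3382, 3892 and 3501 CPM in the untreated samples and 998, 1073 and 1072 CPM at 0.15 µM (log2 fold change -1.78, SE 0.16, edgeR adjusted p 3.64e-08). UTP20 and UTP4, which process the small subunit RNA, were at 148, 169 and 149.8 CPM in the untreated samples and 42.5, 51.4 and 27.4 CPM at 0.15 µM and at 247, 290.3 and 265 CPM in the untreated samples and 73.3, 85 and 78.7 CPM at 0.15 µM (-1.94 and -1.76). Proteins of the cytosolic ribosome moved less, with 12 of 30 lower, 0 higher and a median of -0.46 (-0.11 with library totals, 8 lower). All 30 averaged 10 CPM or more, and their share of lower calls was near the 42.4% of all such genes. The median of such genes was -0.33, and -0.47 in the highest class. RPL4, RPL6 and RPS23 had the largest falls, -0.85, -0.81 and -0.8. Proteins of the mitochondrial ribosome fell further, with 26 of 30 lower, 0 higher and a median of -1.01 (-0.65 and 22 lower with library totals). MRPL3 was at 208, 237 and 216 CPM in the untreated samples and 89.7, 76.5 and 50.5 CPM at 0.15 µM (log2 fold change -1.61, SE 0.21, edgeR adjusted p 2.98e-06), and MRPL39 (-1.42) and MRPL19 (-1.39) followed. Many ribosomal protein genes have processed pseudogenes of near-identical sequence, and the authors' counting could split their reads.

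Energy metabolism is covered by oxidative phosphorylation and glycolysis. Of 35 nuclear genes of oxidative phosphorylation 24 were lower and 0 higher (median -0.67, -0.31 and 15 lower with library totals). SDHD of complex II went from 119 ± 10.1 to 40.7 ± 9.38 CPM (-1.55), CYC1 of complex III from 466 ± 61.1 to 167 ± 14.1 CPM (-1.48) and NDUFA9 of complex I from 24.7 ± 3.24 to 10.3 ± 1 CPM (-1.26). The table lists 0 counts for the genes encoded in mitochondria themselves, which were not analysed here. In glycolysis 8 of 19 were lower and 3 higher (median -0.51), a share of lower calls near the 42.4% of all genes averaging 10 CPM or more, and 6 were higher and 7 lower with library totals. LDHA, the lactate dehydrogenase, was at 1577, 1902 and 1990.3 CPM in the untreated samples and 563, 589 and 720.5 CPM at 0.15 µM (log2 fold change -1.55, SE 0.17, edgeR adjusted p 3.99e-07), PGK1 fell from 1321 ± 36 to 622 ± 39.9 CPM (-1.09) and the hexokinase HK2 from 216 ± 12.7 to 104 ± 9.15 CPM (-1.05). ENO1 and ENO2, the housekeeping and the neuronal enolase, moved in opposite directions. ENO1 was at 5376, 5651 and 6165 CPM in the untreated samples and 2625, 2620.2 and 3526 CPM at 0.15 µM (-0.97 (SE 0.2, edgeR adjusted p 0.000511)) and ENO2 at 6.62, 5.75 and 5.09 CPM in the untreated samples and 40.6, 54 and 59 CPM at 0.15 µM (3.14 (SE 0.16, edgeR adjusted p 2.47e-11)).

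Chaperones were lower at this dose. Of 19 heat shock genes 12 were lower and 2 higher (median -0.74, -0.38 with library totals). The mitochondrial chaperonin pair HSPE1 and HSPD1 led, HSPE1 from 139 ± 3.21 to 40.8 ± 2.33 CPM (-1.77) and HSPD1 from 2169 ± 222 to 663 ± 63.4 CPM (-1.71). HSPA8, the constitutive Hsp70, was at 4946, 5729.8 and 5429 CPM in the untreated samples and 2069, 2217 and 2024 CPM at 0.15 µM (log2 fold change -1.35, SE 0.2, edgeR adjusted p 1.65e-05). HSPB8, a small heat shock protein, was higher, from 0.147 ± 0.104 to 2.01 ± 0.712 CPM (3.75), as was HSPA6, from 0.304 ± 0.0296 to 1.05 ± 0.311 CPM (1.77). Of 13 tested genes of the NRF2 antioxidant response 8 were lower and 2 higher (median -0.72), with the cystine transporter SLC7A11 at -1.47, NQO1 at -1.29 and TXNRD1 at -0.91, against OSGIN1 (1.57) on the higher side. The integrated and unfolded protein stress genes divided, 5 of 18 higher and 6 lower (median 0.12), while 9 were higher and 3 lower with library totals. TRIB3 (-1.08), XBP1 (-0.9) and ATF6 (-0.87) had the largest falls and ATF3 (1.43), HERPUD1 (0.74) and SESN2 (0.67) the largest rises.

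The erythroid programme was altered in part. GATA1 and TAL1, which head it, were not called (-0.07 and 0.0), and GATA2 was at 257 ± 8.47 and 302 ± 20.2 CPM (0.23, edgeR adjusted p 0.22). Genes that work with them went both ways. KLF1, the erythroid Krüppel-like factor, was at 439, 377 and 404 CPM in the untreated samples and 194, 169 and 192 CPM at 0.15 µM (log2 fold change -1.14, SE 0.2, edgeR adjusted p 9.51e-05). LMO2, which bridges GATA1 and TAL1, was at 164, 178 and 164 CPM in the untreated samples and 72.2, 71.2 and 65.3 CPM at 0.15 µM (log2 fold change -1.28, SE 0.13, edgeR adjusted p 2.27e-07). HEMGN (hemogen) was at 246, 316 and 276 CPM in the untreated samples and 88.9, 100.4 and 83.9 CPM at 0.15 µM (log2 fold change -1.62, SE 0.17, edgeR adjusted p 3.5e-07). ZFPM1 (FOG1), a cofactor of GATA1, rose from 119 ± 9.75 to 194 ± 34 CPM (0.7), and GFI1B was not called (-0.29). Factors of other blood lineages or stages divided too. SPI1 (PU.1), the myeloid factor, was at 35.2, 27.4 and 35.5 CPM in the untreated samples and 131, 122 and 129 CPM at 0.15 µM (log2 fold change 1.96, SE 0.16, edgeR adjusted p 1.5e-08), GFI1 rose from 1.85 ± 0.303 to 8.11 ± 0.294 CPM (2.13) and BCL11A, the repressor of fetal globin genes, from 0.183 ± 0.0875 to 3.1 ± 0.525 CPM (4.04). The lymphoid factor IKZF1 fell from 157 ± 14.3 to 77 ± 10.8 CPM (-1.03), and CEBPA (0.6) and RUNX1 (0.41) were not called. Of 20 tested factors 8 were higher and 5 lower (median 0.33, beside 0.28 for all genes). With library totals 12 were higher and 4 lower.

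Products of the erythroid programme moved less uniformly. Of 9 tested globin genes 2 were lower and 0 higher (median -0.57), with 1 lower and 1 higher under library totals. The embryonic zeta globin HBZ was at 986, 1090.0 and 1081 CPM in the untreated samples and 347, 288 and 362 CPM at 0.15 µM (log2 fold change -1.66, SE 0.47, edgeR adjusted p 0.00925). HBD fell from 13.2 ± 2.96 to 8.22 ± 0.193 CPM (-0.68), a call lost with library totals (-0.32), with TMM from genes at 10 CPM or above (-0.41), without untreated replicate 2 (-0.48) and with limma on log2(FPKM + 1) (-0.14). The gamma globins HBG1 and HBG2 were at 126 ± 19.5 to 86.6 ± 7.95 CPM and 368 ± 25.3 to 218 ± 37.7 CPM and were not called (-0.54 and -0.76, edgeR adjusted p 0.321 and 0.119). HBA1 with HBA2 and HBG1 with HBG2 are near-identical copies, and how the counting divided their reads is uncertain. In haem synthesis and transport 6 of 15 genes were lower and 2 higher, but 6 were higher and 3 lower with library totals, so no direction can be given for the group. The lower ones were led by UROD, 671 ± 20.6 to 276 ± 51.3 CPM (-1.28), BLVRB (-1.05) and SLC25A38 (-1.0), and the higher ones were ALAD (0.77) and SLC25A37 (0.58). The BLVRB call was lost without 0.15 µM replicate 2 (-0.96) and with limma on log2(FPKM + 1) (-0.63), and that of SLC25A37 with RLE size factors (0.53), without untreated replicate 1 (0.64), without untreated replicate 2 (0.6), without untreated replicate 3 (0.5), without 0.15 µM replicate 2 (0.62), without 0.15 µM replicate 3 (0.44) and with DESeq2 (0.53). Of 21 genes of the red cell membrane 6 were lower and 3 higher (median -0.05, 0.32 with library totals). TMOD1 (-1.48, 45.3% of its exonic bases covered from the opposite strand) and GYPC, 456 ± 10.7 to 170.5 ± 5.47 CPM (-1.42), fell, while the anion exchanger SLC4A1, 1.9 ± 0.361 to 7.8 ± 0.63 CPM (2.04), and DMTN, 39.3 ± 3.34 to 100.1 ± 14.3 CPM (1.35), rose. TFRC, the transferrin receptor, fell from 1228 ± 109.9 to 423 ± 51.6 CPM (log2 fold change -1.54, SE 0.16, edgeR adjusted p 3.43e-07).

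Genes of the megakaryocyte, the sister lineage of the red cell, were mostly higher. Of 13 tested genes 10 were higher and 1 lower (median 1.46), although PF4, PPBP, GP1BB, GP5, GP9, SELP and RAB27B did not pass the filter. The lower one, TUBB1, went from 2.23 ± 0.375 to 0.759 ± 0.255 CPM (-1.55), and its call was lost with library totals (-1.18), with TMM from genes at 10 CPM or above (-1.29), without untreated replicate 2 (-1.43), without untreated replicate 3 (-1.54), without 0.15 µM replicate 1 (-1.53) and without 0.15 µM replicate 3 (-1.34). The integrin ITGA2B (CD41) was at 4.17, 4.87 and 4.93 CPM in the untreated samples and 12.9, 16.6 and 17.4 CPM at 0.15 µM (log2 fold change 1.75, SE 0.17, edgeR adjusted p 1.31e-07) and its partner ITGB3 (CD61) at 0.573, 0.27 and 0.0391 CPM in the untreated samples and 5.2, 5.08 and 5.09 CPM at 0.15 µM (log2 fold change 4.12, SE 0.4, edgeR adjusted p 8.67e-08, and 5.0 without untreated replicate 1). The exons of another gene of the same strand cover 33.2% of ITGB3. VWF, the von Willebrand factor, rose from 0.0257 ± 0.0446 to 2.3 ± 0.9 CPM (a ratio of 87.5, 95% counting interval 23.9 to 728), with its 2 untreated counts in replicate 2 alone. Summed levels of markers of other cell types were higher in every treated sample. The summed level of 10 granulocyte and monocyte markers was 7.8 to 9.9 CPM untreated and 37.8 to 38.6 CPM at 0.15 µM, and 4 of the 10 were at 0 counts in each untreated sample. The 9 lymphoid markers summed to 5.91 to 10.0 CPM and 27.0 to 39.0 CPM, and the 9 markers of stroma and endothelium to 22.0 to 25.8 CPM and 283 to 372 CPM. COL1A1, a collagen I chain, accounted for most of the latter, at 5.19, 3.32 and 4.58 CPM in the untreated samples and 305, 249 and 339 CPM at 0.15 µM (log2 fold change 6.09, SE 0.25, edgeR adjusted p 1.36e-12). Most of these markers passed the filter through the treated samples, so their calls are not counted here. MPO, the defining granulocyte enzyme, was at 0 counts in each untreated sample and reached 0.57 ± 0.08 CPM, and the B cell marker MS4A1 did not pass the filter. The part of these markers in the other results was not tested.

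Neuronal genes beyond those above were higher too. Of 59 genes on a synaptic and neuronal list 53 were tested, 44 were higher and 4 lower, and the median was 3.36, or 2.56 with the 12 members of 0 untreated counts at their lower bound. Of the 18 members averaging 10 CPM or more 13 were higher and 4 lower (median 1.38), beside 17.7% higher among all such genes. VGF, a neuropeptide precursor, was at 7.24, 7.15 and 9.04 CPM in the untreated samples and 571, 427 and 579.8 CPM at 0.15 µM (log2 fold change 6.07, SE 0.32, edgeR adjusted p 2.46e-11). SHANK1, a scaffold of the synapse, was at 0.9, 0.541 and 0.939 CPM in the untreated samples and 27.2, 22.2 and 28.8 CPM at 0.15 µM (log2 fold change 5.03, SE 0.21, edgeR adjusted p 1.12e-12), and MAPT, the microtubule protein tau, at 10.1, 9.58 and 10.4 CPM in the untreated samples and 98.6, 93.6 and 117 CPM at 0.15 µM (log2 fold change 3.36, SE 0.17, edgeR adjusted p 2.13e-11). In all of them the groups were far apart. SYP (synaptophysin) rose from 10.5 ± 2.31 to 57.8 ± 13.5 CPM (2.46) and SYN1 (synapsin I) from 0.828 ± 0.142 to 31.7 ± 2.31 CPM (5.25). NOVA1, like NOVA2, had 0 untreated counts and was at 1.72, 1.66 and 2.55 CPM, at least 50.1-fold higher. The lower members were BSN (bassoon), 56.4 ± 3.28 to 23.5 ± 0.374 CPM (-1.26), STMN3 (-0.78), HOMER1 (-0.69) and NEFH (-0.49). The call of HOMER1 was lost with library totals (-0.33) and with limma on log2(FPKM + 1) (-0.08). NEFH (edgeR adjusted p 0.0397) lost its call in several settings, most clearly with library totals (-0.13) and with limma on log2(FPKM + 1) (-0.12). NEFL, ELAVL2, ELAVL4, NLGN1 and RIMS1 did not pass the filter.

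Cytoskeletal genes moved in opposite directions within families. Of 20 tubulin genes 8 were higher and 6 lower, and 9 were higher and 3 lower with library totals. TUBA3E had 0 untreated counts and was at 0.117 ± 0.0538 CPM, at least 2.95-fold higher. The neuronal beta-tubulins TUBB2B, 4.12 ± 0.613 to 89.1 ± 2.96 CPM (4.43), and TUBB4A, 5.41 ± 0.684 to 76.4 ± 8.44 CPM (3.82), and the alpha-tubulin TUBA1A, 24 ± 10.2 to 149 ± 39.4 CPM (2.63), rose. The widely expressed TUBA1B, 775 ± 30.4 to 295 ± 22 CPM (-1.39), fell. Tubulin genes are near-identical over long stretches and their reads may have been divided between them, and 44% of the exonic bases of TUBA1B are covered from the opposite strand. Of 25 regulators of actin 14 were higher and 3 lower (median 0.87). Of the 18 averaging 10 CPM or more 9 were higher and 3 lower, with a median of 0.13. ACTB, ACTG1, CFL1, ACTN1 and ACTN4 were not called. The smooth muscle actin ACTA2 went from 0 untreated counts to 0.431 ± 0.106 CPM (at least 10.9-fold higher), and PFN2 rose from 0.313 ± 0.15 to 9.87 ± 0.827 CPM (4.95). PFN1, the common profilin, fell from 674 ± 38.2 to 352 ± 37.5 CPM (-0.94). TAGLN2 (-0.83) and FLII (-0.73) fell too.

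**Figure D3:**
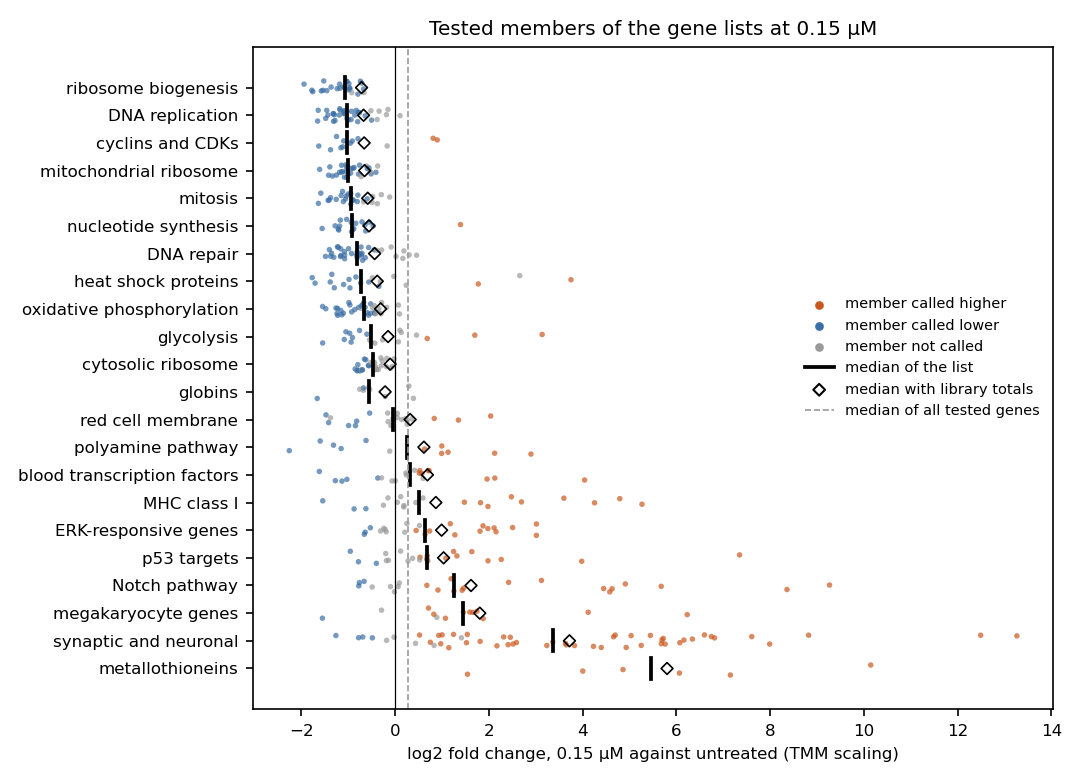
Log2 fold change at 0.15 µM against untreated of the tested members of 22 gene lists (points, orange called higher, blue called lower, grey not called), with the median of each list (bar), its median with library totals (diamond) and the median of all tested genes (dashed line, 0.28). Lists of growth and division lie below 0 under both scalings (ribosome biogenesis -1.08 and -0.72), and the metallothionein and neuronal lists lie highest (5.46 and 3.36). Members of these 2 lists with few or no untreated counts passed the filter through the treated samples. With at least 10 counts required in every sample the 2 medians were 2.95 and 1.42. These rest on the members that met the requirement, which MT1E, MT1F and MT1G did not.

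Metallothioneins bind zinc and copper. Of 9 genes 6 passed the filter and were called higher, 1 of them averaging 10 CPM or more, and MT1H, MT1M and MT3 did not pass it. The median of the 6 was 5.46, and 4.43 with MT1E and MT1G, which had 0 untreated counts, at their lower bound. MT2A was at 1.35, 2.01 and 1.84 CPM in the untreated samples and 28.9, 24.3 and 30.5 CPM at 0.15 µM (log2 fold change 4.0, SE 0.19, edgeR adjusted p 8.38e-12). MT1G had 0 untreated counts and was at 4.78, 4.02 and 6.06 CPM, at least 126-fold higher. MT1E was at 0, 0 and 0 and 0.984, 0.459 and 0.413 CPM and MT1F at 0.0818, 0.0772 and 0.157 and 8.47, 6.99 and 6.57 CPM. MT1 genes resemble each other closely, so the share of each is uncertain.

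The Notch pathway, which passes signals between touching cells, rose at its receptors and ligands. Of 23 genes 15 were higher and 3 lower (median 1.25). Of the 12 members averaging 10 CPM or more, however, 4 were higher and 3 lower, with a median of 0.02. The receptors NOTCH2 and NOTCH3 were at 1.8, 1.24 and 2.03 CPM in the untreated samples and 55.9, 56.1 and 40.7 CPM at 0.15 µM (log2 fold change 4.91, SE 0.25, edgeR adjusted p 2.11e-11) and at 2.13, 2.05 and 2.62 CPM in the untreated samples and 56.6, 52 and 54.1 CPM at 0.15 µM (log2 fold change 4.58, SE 0.27, edgeR adjusted p 1.72e-10). NOTCH1 rose from 37.6 ± 5.34 to 70.8 ± 10.7 CPM (0.91). DTX1, a regulator of the receptors, went from 0 untreated counts to 2.69 ± 0.195 CPM, at least 68.1-fold higher, and HES2 from 0.0818 ± 0.142 to 4.27 ± 0.855 CPM (5.68, and 9.95 without untreated replicate 1). Among ligands DLL1 had 0 untreated counts and 1.51, 1.41 and 1.38 CPM at 0.15 µM. The target HEYL rose from 0.951 ± 0.107 to 23.6 ± 3.04 CPM (4.63), whereas HES1, another target, was at 24.9 ± 3.06 and 26.5 ± 2.55 CPM (0.09, edgeR adjusted p 0.65). The nuclear mediators were lower, RBPJ from 137 ± 8.04 to 86.8 ± 10.4 CPM (-0.66) and MAML1 from 69.5 ± 3.54 to 40.6 ± 5.29 CPM (-0.78). The RBPJ call was lost with library totals (-0.31) and with limma on log2(FPKM + 1) (-0.08), and that of MAML1 with library totals (-0.41) and with limma on log2(FPKM + 1) (-0.22).

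Genes of antigen presentation went both ways. Of 20 tested genes of MHC class I, 9 were higher and 3 lower (median 0.52). HLA-B was at 2.13, 2.24 and 3.09 CPM in the untreated samples and 46.3, 43.3 and 53.1 CPM at 0.15 µM (log2 fold change 4.25, SE 0.2, edgeR adjusted p 5.61e-12) and HLA-C at 7.97, 9.08 and 8.57 CPM in the untreated samples and 54.5, 54.7 and 56.7 CPM at 0.15 µM (log2 fold change 2.69, SE 0.14, edgeR adjusted p 3.46e-11). The immunoproteasome subunit PSMB9 was at 0.777, 0.386 and 0.704 CPM in the untreated samples and 20.9, 23.1 and 28.1 CPM at 0.15 µM (log2 fold change 5.27, SE 0.32, edgeR adjusted p 1.98e-10), and the peptide transporter TAP1 and the class I transactivator NLRC5 rose from 4.14 ± 0.513 to 23.1 ± 2.26 CPM (2.48) and from 0.582 ± 0.245 to 7.08 ± 1.37 CPM (3.6). B2M, the shared light chain, was not called (306 ± 20 and 348 ± 32.8 CPM, 0.19, edgeR adjusted p 0.393), nor was TAP2 (0.05). Lower were PSMB10 (-1.54, 39.4% of its exonic bases shared with a gene of the same strand), the chaperone CANX, 2213 ± 186 to 1205 ± 129 CPM (-0.88), and ERAP1 (-0.62). The ERAP1 call was lost with library totals (-0.26), with TMM from genes at 10 CPM or above (-0.36), with at least 10 counts required in every sample (-0.45), without untreated replicate 2 (-0.58), without untreated replicate 3 (-0.57), without 0.15 µM replicate 3 (-0.47) and with limma on log2(FPKM + 1) (-0.13). HLA genes vary between genomes and resemble each other, and 32.7% of the exonic bases of HLA-B are shared with another gene of the same strand, so their values are uncertain.

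Ligands of natural killer cell receptors divided. Of 11 tested genes 5 were higher and 1 lower, but of the 5 averaging 10 CPM or more 1 was higher and 1 lower. Members with few or no untreated counts could only be called higher. The NKG2D ligand ULBP3 had 0 untreated counts and 1.41, 1.62 and 1.31 CPM at 0.15 µM, RAET1G rose from 0.0649 ± 0.0597 to 1.8 ± 0.497 CPM (4.69, and 5.36 without untreated replicate 3), ULBP2 from 0.105 ± 0.0445 to 2.72 ± 0.883 CPM (4.63) and PVR, which binds DNAM-1, from 54.2 ± 6.44 to 136 ± 12.1 CPM (1.32). MICA was not called (0.27). Interferon-stimulated genes moved both ways, with 11 of 25 higher and 4 lower (median 0.78). Of the members averaging 10 CPM or more 3 were higher and 3 lower. OASL, OAS2 and the antiviral GTPase MX1 had 0 untreated counts and rose to 1 ± 0.414, 0.327 ± 0.182 and 0.244 ± 0.0588 CPM, at least 25.3-fold, 8.25-fold and 6.19-fold higher. The membrane proteins IFITM1, 321 ± 15.8 to 88.2 ± 6.55 CPM (log2 fold change -1.86, SE 0.28, edgeR adjusted p 4.52e-05), IFITM2 (-0.77) and IFITM3 (-0.77) were lower. The IFITM2 call was lost with library totals (-0.41) and with TMM from genes at 10 CPM or above (-0.51), and the IFITM3 call with library totals (-0.42). IRF9 (-0.29), a factor that drives this response, was not called.

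The BCR-ABL pathway changed at its kinases and STAT factors. The BCR and ABL1 genes themselves were not called (-0.13 and -0.15, edgeR adjusted p 0.581 and 0.502). Of 19 genes 5 were higher and 4 lower (median -0.12). JAK2 was at 34.3, 34.8 and 26.3 CPM in the untreated samples and 15.7, 16 and 12.8 CPM at 0.15 µM (log2 fold change -1.1, SE 0.17, edgeR adjusted p 2.7e-05) and JAK3, the lymphoid kinase, at 0.164, 0.0772 and 0.0391 CPM in the untreated samples and 6.29, 5.26 and 5.23 CPM at 0.15 µM (log2 fold change 5.86, SE 0.33, edgeR adjusted p 5.92e-11, and 6.48 without untreated replicate 1). The adaptor CRKL, a main substrate of BCR-ABL, fell from 1211 ± 17.3 to 714 ± 35.6 CPM (-0.76) and STAT5A from 510.2 ± 36.5 to 247 ± 24.9 CPM (-1.05), while STAT2 rose from 32.1 ± 4.23 to 62 ± 9.85 CPM (0.95). Of 11 tested genes known as targets of STAT5 6 were higher and 2 lower (median 0.81), and 7 were higher and 0 lower with library totals. The lower members were MYC (-0.61) and the survival gene MCL1 (-0.38). ID1 was at 14.1, 14.5 and 14.8 CPM in the untreated samples and 155, 112 and 126 CPM at 0.15 µM (log2 fold change 3.18, SE 0.19, edgeR adjusted p 1.57e-10), SOCS1 rose from 29.5 ± 0.864 to 110.4 ± 15.5 CPM (1.91), SOCS3 from 28.1 ± 1.67 to 60.6 ± 9.65 CPM (1.11), the kinase PIM1 from 419 ± 30.2 to 901 ± 28.4 CPM (1.11), and the survival gene BCL2L1 from 132 ± 4.42 to 254 ± 23.8 CPM (0.95, 41.3% of its exonic bases covered from the opposite strand). CISH (-0.02) and PIM2 (-0.11) were not called.

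Of 23 immediate-early genes and feedback genes of ERK signalling 13 were higher and 3 lower (median 0.64). The feedback inhibitors divided. DUSP4, DUSP5 (1.27) and SPRY1 (0.74) were higher, and SPRED1 (-0.53) and SPRED2 were lower. DUSP6 (-0.31), SPRY2 (-0.24) and SPRY4 (-0.19) were not called, nor were ETV4 and ETV5. FOSL1 was lower (-0.64). FOSL2 was at 4.13, 4.4 and 5.56 CPM in the untreated samples and 40, 37 and 36.9 CPM at 0.15 µM (log2 fold change 3.01, SE 0.17, edgeR adjusted p 9.61e-11). EGR2 rose from 0.134 ± 0.0968 to 1.1 ± 0.6 CPM (3.01, and 3.75 without untreated replicate 1), FOS from 4.1 ± 0.521 to 23.3 ± 4.76 CPM (2.51), EGR1 from 162 ± 5.6 to 568 ± 28.4 CPM (1.81), JUN from 33.5 ± 1.49 to 123 ± 8.24 CPM (1.87) and the phosphatase DUSP4 from 6.68 ± 0.519 to 28.9 ± 3.69 CPM (2.11). SPRED2, an inhibitor of the pathway, was lower (-0.66), a call lost with library totals (-0.29), with TMM from genes at 10 CPM or above (-0.4) and with limma on log2(FPKM + 1) (-0.11). MYC was at 574, 669.9 and 587 CPM in the untreated samples and 470.3, 468 and 258 CPM at 0.15 µM, a log2 fold change of -0.61 (SE 0.23, edgeR adjusted p 0.0352). Its call was lost with library totals (-0.24), with TMM from genes at 10 CPM or above (-0.35), with at least 10 counts required in every sample (-0.44), without untreated replicate 1 (-0.66), without untreated replicate 2 (-0.54), without untreated replicate 3 (-0.64), without 0.15 µM replicate 3 (-0.38) and with limma on log2(FPKM + 1) (-0.3). Of 12 tested genes of the MYC network 3 were higher and 4 lower, whereas 5 were higher and 1 lower with library totals. Among them were MLXIPL (ChREBP), 2.19 ± 0.21 to 34.2 ± 6.07 CPM (3.96), and MYCL, 7.44 ± 0.371 to 16.1 ± 0.906 CPM (1.11), on the higher side and the MAX partner MXD1, 20.9 ± 1.74 to 8.5 ± 2.09 CPM (-1.3), on the lower.

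K562 cells are known to lack functional p53. Of 23 tested genes listed as p53 targets 12 were higher and 3 lower (median 0.67). Besides CDKN1A, PHLDA3, an inhibitor of AKT, went from 0 untreated counts to 0.707 ± 0.552 CPM, at least 18-fold higher. TP53INP1 rose from 3.44 ± 1.05 to 16.6 ± 3.39 CPM (2.26), BTG2 from 49.1 ± 5.25 to 117 ± 9.65 CPM (1.25) and GDF15 from 47.9 ± 3.68 to 101 ± 16.8 CPM (1.08), and AEN fell from 159 ± 7.24 to 81.8 ± 5.71 CPM (-0.96). In the BCL2 family 5 of 15 tested genes were higher and 3 lower (median -0.06), and 6 were higher and 1 lower with library totals. The killers BMF and BIK, which bind and block survival proteins, were higher, BMF at 2.62, 3.05 and 2.74 CPM in the untreated samples and 17.9, 15.4 and 14.5 CPM at 0.15 µM (log2 fold change 2.51, SE 0.17, edgeR adjusted p 5.8e-10) and BIK from 1 untreated count to 0.909 ± 0.161 CPM (a ratio of 69, 95% counting interval 12 to 2759). BID, which links death receptors to mitochondria, fell from 106 ± 6.74 to 44.1 ± 9.58 CPM (-1.26). Of 19 tested genes of death receptors and caspases 5 were higher and 5 lower (median 0.3), while 10 were higher and 3 lower with library totals. CASP6, an executioner caspase, fell from 31.7 ± 4.17 to 14.6 ± 0.57 CPM (-1.12), whereas BIRC3, an inhibitor of apoptosis, rose from 0.398 ± 0.151 to 13.6 ± 1.39 CPM (5.09).

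In absolute CPM the largest gains were in KRT8, CD24, MALAT1, VIM and LAPTM4B and the largest losses in EEF1A1, HSPA8, HSP90AB1, ENO1 and NPM1. KRT8, a keratin that K562 cells express, was at 689, 669.9 and 732 CPM in the untreated samples and 2701, 2247 and 3164 CPM at 0.15 µM (log2 fold change 1.96, SE 0.29, edgeR adjusted p 1.53e-05). CD24, a surface glycoprotein, was at 145, 162 and 163 CPM in the untreated samples and 1711, 1706 and 1813 CPM at 0.15 µM (log2 fold change 3.48, SE 0.17, edgeR adjusted p 8.38e-12). VIM (vimentin) rose from 523 ± 68 to 1409 ± 34.3 CPM (1.43) and the lysosomal membrane protein LAPTM4B from 788 ± 31.4 to 1575 ± 159 CPM (1.0). MALAT1, a nuclear lncRNA, had 3719.7, 3235 and 4101 CPM in the untreated samples and 5608, 5204 and 4858 CPM at 0.15 µM, which did not pass the test (0.5 (SE 0.39, edgeR adjusted p 0.304)), and 83.7% of its exonic bases are covered from the opposite strand. The elongation factor EEF1A1 was at 13035, 15368 and 15192 CPM in the untreated samples and 9757, 9235 and 10545 CPM at 0.15 µM (-0.56 (SE 0.19, edgeR adjusted p 0.0202)), and its call was lost with library totals (-0.2), with TMM from genes at 10 CPM or above (-0.3), with at least 10 counts required in every sample (-0.38), without untreated replicate 2 (-0.52), without untreated replicate 3 (-0.53), without 0.15 µM replicate 1 (-0.55), without 0.15 µM replicate 2 (-0.52) and with limma on log2(FPKM + 1) (-0.2). HSP90AB1, the constitutive Hsp90, was at 5687, 6452 and 6619.6 CPM in the untreated samples and 2725, 3186 and 3569.6 CPM at 0.15 µM (log2 fold change -0.98, SE 0.18, edgeR adjusted p 0.000168).

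Beside the higher doses, 0.15 µM was not a weaker copy of 1 µM in every gene. Between 0.15 and 1 µM 21.5% of the tested genes were called higher and 23.1% lower. The genes that follow were chosen because their step from 0.15 to 1 µM was opposite to their change at 0.15 µM, with an average of 10 CPM or more over the 15 samples. Both comparisons use the 0.15 µM samples, so their values are descriptions. CBFA2T3 (ETO2), a corepressor of the erythroid GATA1 complex, was at 191 ± 19.9 CPM untreated and at 280.3 ± 27.9, 84.4 ± 7.15, 2.85 ± 0.312 and 3.45 ± 0.835 CPM at 0.15 µM, 0.25 µM, 0.5 µM and 1 µM. In the same order MIR223HG, the host of a myeloid microRNA, was at 7.75 ± 2.79, 46.8 ± 7.35, 33.3 ± 35.2, 0.136 ± 0.235 and 0.0699 ± 0.000967 CPM. The lncRNA LINC02772 went through 33.3 ± 2.77, 89 ± 18.5, 92.1 ± 45.1, 2.43 ± 1.49 and 1.98 ± 0.222 CPM. ALB (albumin) went through 15.8 ± 0.816, 44.8 ± 4.95, 14.5 ± 9.54, 0.807 ± 0.416 and 0.874 ± 0.0404 CPM, and its higher call at 0.15 µM was lost without the low-count filter (1.51). All 4 had their highest mean at 0.15 or 0.25 µM and lay below 4 CPM at 0.5 and 1 µM.

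The reverse course was seen in ODC1, ALAS1, DUSP1 and VASN. ODC1, at 1242 ± 18.9 CPM untreated, was at 259.5 ± 15.2, 246 ± 36.5, 2679 ± 467 and 2409 ± 384 CPM with rising dose. ALAS1, the housekeeping first enzyme of haem synthesis, was at 58 ± 3.32, 38.1 ± 3.01, 63.1 ± 11.2, 302 ± 21.8 and 302 ± 32.2 CPM, and its lower call at 0.15 µM was lost with library totals (-0.24) and with limma on log2(FPKM + 1) (-0.18). DUSP1, a phosphatase of MAP kinases, was at 25.2 ± 0.64, 13 ± 2.03, 16 ± 3.21, 99.8 ± 3.39 and 119 ± 20.7 CPM. VASN, a trap of TGF-beta, was at 5.61 ± 0.757, 3.98 ± 0.961, 5.76 ± 0.203, 35.4 ± 5.28 and 35.1 ± 0.552 CPM, and its lower call at 0.15 µM was lost with library totals (-0.14), with TMM from genes at 10 CPM or above (-0.24), without the low-count filter (-0.49), with at least 10 counts required in every sample (-0.32), in a fit of the 6 samples (-0.47), without untreated replicate 1 (-0.42), without untreated replicate 3 (-0.45), without 0.15 µM replicate 2 (-0.33), without 0.15 µM replicate 3 (-0.5) and with limma on log2(FPKM + 1) (-0.04). In each, the levels at 0.15 and 0.25 µM lay far below those at 0.5 and 1 µM.

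**Figure D4:**
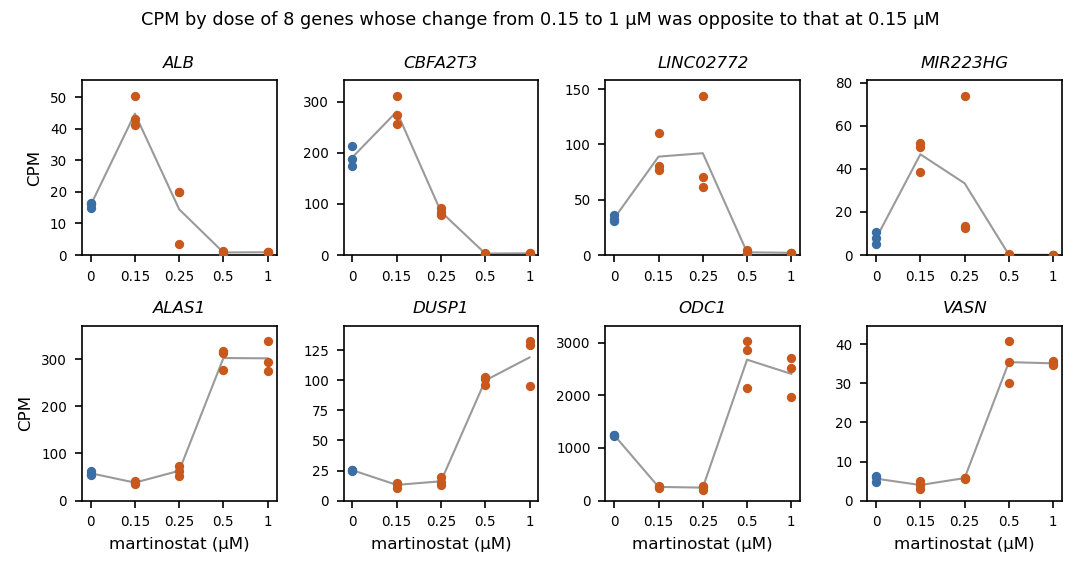
CPM (linear axes from 0) of 8 genes in each sample by dose of martinostat in µM, untreated samples in blue and treated ones in orange, with grey lines through the group means. In the upper row the level is highest at 0.15 or 0.25 µM and lowest at 0.5 and 1 µM, and in the lower row it is low at 0.15 µM and highest at 0.5 or 1 µM.

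Other genes named above took several courses between 0.15 and 1 µM. CDKN1A was at 61.6 ± 3.91 CPM at 0.15 µM and 356 ± 51.2 CPM at 1 µM, and VGF at 526 ± 85.5 and 3261 ± 238 CPM. L1CAM was at 126 ± 7.8 and 137 ± 21.7 CPM and NPM1 at 1048 ± 42.9 and 983 ± 22.8 CPM, and neither step between these doses was called (log2 fold change from 0.15 to 1 µM 0.13, edgeR adjusted p 0.531, and -0.09, adjusted p 0.663). KLF1 and HEMGN, lower at 0.15 µM, were at 3.58 ± 0.449 and 1.08 ± 0.284 CPM at 1 µM. SPI1, raised at 0.15 µM, was at 12.3 ± 1.65 CPM at 1 µM, below its untreated level of 32.7 ± 4.58 CPM. GATA1, which was not called at 0.15 µM, was at 18.9 ± 3.08 CPM at 1 µM.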

How the data were processed

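Per the submitters' notes, the authors trimmed paired-end reads of poly(A) RNA (directional kit) with Trim Galore 0.6.10, aligned them to hg38 with HISAT2 2.2.1, sorted them with SAMtools 1.21 and counted them per GENCODE gene with featureCounts 1.5.3. The authors deposited raw counts for 60649 genes and FPKM values. The strand setting of the counting is not given in the sources used here.

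From the counts, 23711 genes passed filterByExpr over all 15 samples and were fitted together by group with edgeR 4.0.16 (R 4.3.3, TMM, robust quasi-likelihood, false discovery rate 0.05), since all groups then share 1 estimate of spread. Fits were tested on simulated data. Alternatives were RLE factors, library totals, TMM from genes at 10 CPM or above, other filters, DESeq2 1.42.0, limma 3.58.1 on log2(FPKM + 1) with the authors' FPKM, the 6 samples alone, a replicate block and each sample left out. The total counts of the 6 samples, 27012416 to 32805574, limit genes near 0, and intervals cover counting error only.

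Named genes were the 12 highest and 12 lowest folds among genes averaging 10 CPM or more whose groups do not overlap, up to 3 called members in each direction of each list, the 6 silent genes with the highest treated level, 4 genes per direction with an opposite step after 0.15 µM, and the 5 largest gains and losses in CPM. Further list members were added after their values were seen, and some genes that met the rule are not reported here. Lists and members were chosen with earlier results of these data known. Promoters are from RefSeq (GRCh38.p14). Exons shared with another gene cover 10% or more also of CCND1, CCND2, CDK2, CDKN2C, CHEK1, DNMT3L, ERAP1, HBG1, HBG2, HBZ, HDAC7, HSPA8, HSPE1, IFITM1, IFITM3, IRF9, MRPL19, NDUFA9, NQO1, PVR, SDHD, SYN1, TAL1, TAP1, TAP2, TUBA1A, TUBB4A and VIM.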

Additional observations from a re-analysis of the deposited data

How the results depend on the processing

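The counts of genes moved most with the scaling. With library totals 2118 genes were called lower, 320 of them over 2-fold, and 243 genes called lower at 0.15 µM were higher at 1 µM than at 0.15 µM, against 687 with TMM. With TMM from genes at 10 CPM or above 2891 were lower and 499 over 2-fold lower. Requiring 10 counts in every sample, which tests fewer genes, left 7517 called, 4090 of them higher, with 2526 over 2-fold higher and 641 over 2-fold lower. The limma test on log2(FPKM + 1) called 7069, of which 1841 were lower, and found 747 over 2-fold higher, 99 over 2-fold lower and 139 lower and then higher. Fold changes on that scale are smaller for low genes by its construction. RLE size factors, DESeq2 (DESeq2 called 12837), no filter and a fit of the 6 samples kept each of these counts within 1.5 times, except that the last, which holds no 1 µM samples, gives no count of genes lower and then higher. Leaving out 1 sample left between 10604 and 11229 called.

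Deviations of same-numbered samples did not go together (r -0.00578, 0.0873 and 0.00359 for numbers 1, 2 and 3), so the numbers were not used as pairs. With the number as a replicate block 12136 genes were called, 7547 higher and 4589 lower, and among single genes the sign turned for TAL1 -0.00188.

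Signs turned for list medians near 0 and for single genes that were not called, apart from CDKN1B (values are log2 fold changes, list medians by list name, and of the lists those whose median the text gives). With library totals the sign turned for HDACs 0.208, red cell membrane 0.32, BCR-ABL pathway 0.25, BCL2 family 0.2996, autophagy 0.0755, CDKN2C 0.196, CISH 0.341, ABL1 0.218, GFI1B 0.0696, CDKN1B 0.0567, IRF9 0.0714, OAZ1 0.237, BCR 0.234, GATA1 0.288 and PIM2 0.251. With TMM from genes at 10 CPM or above the sign turned for HDACs 0.11, red cell membrane 0.214, BCR-ABL pathway 0.146, BCL2 family 0.203, CDKN2C 0.101, CISH 0.242, ABL1 0.114, OAZ1 0.143, BCR 0.131, GATA1 0.191 and PIM2 0.151. With 10 counts required in every sample the sign turned for HDACs 0.0255, red cell membrane 0.174, BCR-ABL pathway 0.054, CDKN2C 0.0176, CISH 0.158, ABL1 0.0289, OAZ1 0.0588, BCR 0.047, GATA1 0.107 and PIM2 0.0658. With limma on FPKM the sign turned for HDACs 0.00404, red cell membrane 0.2001, BCR-ABL pathway 0.157, BCL2 family 0.124, autophagy 0.0044, CDKN2C 0.148, CISH 0.327, ABL1 0.157, GFI1B 0.0495, CDKN1B 0.0331, IRF9 0.0105, OAZ1 0.229, BCR 0.17, GATA1 0.279 and PIM2 0.238. With RLE size factors the sign turned for lysosome -0.00716, TAL1 -0.0443, H2BC21 -0.0375 and TAP2 -0.00233. With DESeq2 the sign turned for lysosome -0.0148, TAL1 -0.0416, H2BC21 -0.0351 and TAP2 -3.65e-05. In the fit of the 6 samples the sign turned for CISH 0.0107. Over the fits without 1 sample the values that crossed 0 ranged for red cell membrane from -0.114 to 0.0546, lysosome from -0.0833 to 0.085, H2BC21 from -0.0702 to 0.0939, TAP2 from -0.0821 to 0.142, IRF9 from -0.545 to 0.407 and TAL1 from -0.0671 to 0.0535. The causes were not tested.

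Calls of named genes that were lost with limma on FPKM and with no other alternative were those of ADSS1, AZIN2, BIK, CYC1, DTX1, EGR2, FLII, ITGB3, KLF12, KLF7, MPO, MT1E, MX1, MXD1, OAS2, OASL, PHLDA3, TAGLN2, TDG, TUBA3E and TXNRD1. With 3 samples a group and no second line, the data do not show how the values vary between cell sources.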

Other observations

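Several groups outside the programmes above moved in both directions at 0.15 µM. Of 36 tested autophagy genes 15 were lower and 6 higher (median -0.29), but with library totals 4 were lower and 12 higher. Of 27 lysosomal genes 9 were higher and 5 lower (median 0.04, beside 0.28 for all genes), with the cholesterol carrier NPC2 going from 6.16 ± 1.69 to 27.5 ± 1.68 CPM (2.16) and the protease CTSB from 259 ± 24.1 to 616 ± 44.4 CPM (1.25). The membrane protein LAMP1 fell from 284 ± 21.4 to 146 ± 12.4 CPM (-0.96). In cholesterol synthesis 6 of 22 genes were lower and 2 higher with TMM and 1 and 9 with library totals, so no direction can be given for the group. Of 11 genes of iron handling 5 were lower and 1 higher (2 and 2 with library totals), of 7 tested thioredoxin and arrestin genes 3 were lower and 2 higher (1 and 3 with library totals), and of 12 drug transporters 3 were lower and 1 higher.

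ID2 and ID3, inhibitors of DNA binding, rose among 19 tested genes of TGF-beta and BMP signalling, of which 8 were higher and 2 lower. ID3 was at 17.6, 13.2 and 13.3 CPM in the untreated samples and 199, 159 and 133 CPM at 0.15 µM (3.48 (SE 0.22, edgeR adjusted p 2.67e-10)) and ID2 rose from 6.8 ± 0.356 to 54.7 ± 10.6 CPM (3.01). Of 14 Krüppel-like factors 6 were higher and 3 lower, whereas 6 were higher and 0 lower with library totals. Of the 7 averaging 10 CPM or more 1 was higher and 3 were lower with TMM. KLF7 went from 0.0273 ± 0.0472 to 0.663 ± 0.147 CPM (a ratio of 25.2, 95% counting interval 6.66 to 213, both untreated counts in replicate 1) and KLF12 from 1.14 ± 0.264 to 6.65 ± 1.74 CPM (2.55). Of 13 genes of DNA methylation 5 were lower and 2 higher, whereas 3 were higher and 1 lower with library totals. The call of the maintenance enzyme DNMT1, 435 ± 17.2 to 303 ± 24.4 CPM (-0.52), was lost with library totals (-0.16), with TMM from genes at 10 CPM or above (-0.26) and with limma on log2(FPKM + 1) (-0.13). The glycosylase TDG fell from 124 ± 13.6 to 58.5 ± 12.3 CPM (-1.09), while DNMT3L rose from 0.16 ± 0.139 to 3.59 ± 0.0689 CPM (4.46). Among 26 Polycomb genes 11 were lower and 4 higher with TMM and 4 and 7 with library totals. Of 16 tested genes on a list of histone genes with polyadenylated messages 6 were lower and 2 higher, with 4 and 4 under library totals. The list holds variant histones and also genes of the replication-dependent clusters, among them H2AC6 (-0.92, called lower) and H2BC5 (1.15, called higher). Replication-dependent histone messages mostly lack a poly(A) tail, so values of these members in poly(A) RNA may not stand for all their messages.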
